A study of Homo sapiens with 12 samples.

Results

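The integrin subunits that recognise the RGD peptide (arginine, glycine, aspartate) were taken as 7 genes, the alpha subunits ITGAV, ITGA5 and ITGA8 and the beta subunits ITGB3, ITGB5, ITGB6 and ITGB8. Every probe whose gene name in the deposited table was one of these was kept, which gave 11 of 47228 probes, 5 of them for ITGB5 and 1 for each of the others. The study knocked down focal adhesion kinase (FAK, encoded by PTK2) in MIA PaCa-2 and Capan-1, established human pancreatic ductal adenocarcinoma (PDAC) cell lines. Each line carried a doxycycline-inducible PLKO.1 tet-on vector with a scrambled hairpin (shCtrl) or with sh1209 or sh1319, a pair of hairpins against FAK, the latter spelled shFAK1319 in the Capan-1 labels and taken here as the same hairpin. All 6 groups were selected in puromycin (3.5 ug/ml in the MIA PaCa-2 groups, 1.5 ug/ml in the others), and all were given 50 ng/ml doxycycline for 96 hours, the controls included. Total RNA from 2 samples of each group was hybridised to 12 Illumina expression arrays, and the labels do not say whether those 2 came from separate cultures, so p-values measure the spread between arrays, which may be technical.

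Integrins are transmembrane receptors built of an alpha and a beta chain that link the extracellular matrix to the cytoskeleton, and FAK is recruited to the adhesions that they form. The RGD binding group includes the αv integrins, in which ITGAV pairs with ITGB1, ITGB3, ITGB5, ITGB6 or ITGB8, and the fibronectin and nephronectin receptors, in which ITGA5 and ITGA8 pair with ITGB1. Besides fibronectin and vitronectin, the αv integrins with ITGB6 or ITGB8 bind the RGD motif in the latency peptide of TGF-β and release the active cytokine, and αvβ6 is known as a receptor of epithelial tumors.

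The median intensity per array was 87.7 to 97, and 16259 to 19814 probes per array had a detection p under 0.05, the limit used here for a detected probe. FAK knock down was read from PTK2 probe 450253, whose log2 change in MIA PaCa-2 was -2.24 (SE 0.114) for sh1209 and -2.48 for sh1319, while in Capan-1 it was -0.61 and -1.78 (limma, adjusted p between 5.2e-08 and 0.0036). The loss at this probe did not differ detectably between the hairpins in MIA PaCa-2 (0.24, adjusted p = 0.17) but was larger with sh1319 in Capan-1 (1.16, adjusted p = 6.2e-05). The dim PTK2 probe 2680750, with intensities under those of the other on every array, gave 0.31, -0.29, -0.46 and -0.46 in the same order and passed against shCtrl in neither line, though in MIA PaCa-2 it was higher with sh1209 than with sh1319 (0.59, adjusted p = 0.021). All 10 epithelial markers examined were detected on all 6 Capan-1 arrays and 2 of 10 on all MIA PaCa-2 arrays, where CDH1, CLDN7, ESRP1 and GRHL2 were detected on none. VIM, the mesenchymal filament protein, had a mean normalized log2 intensity with shCtrl of 13.21 in MIA PaCa-2 against 5.66 in Capan-1, while CDH2, or N-cadherin, lay the other way, at 4.499 (detected on none of 6 arrays) against 5.93 (6 of 6). Of the 6 tested probes of the mesenchymal list, 2 were higher and 2 lower in MIA PaCa-2 with shCtrl, and ZEB1 was detected on no array. Of 8 markers of stromal, endothelial and immune cells, none was detected on all arrays of either line, and 4 were detected on no array of each line. CD14 was detected on 5 of 6 MIA PaCa-2 arrays and PECAM1 on 5 of 6 Capan-1 arrays.

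ITGAV, the common chain of the αv integrins, was the member that moved most with each hairpin in MIA PaCa-2, though not in Capan-1. In MIA PaCa-2 its probe 2690209 had intensities of 254.5 and 213.3 with shCtrl, 159.7 and 154.2 with sh1209, and 402.5 and 648 with sh1319. The sh1209 arrays were the lowest of this line and the sh1319 arrays the highest, with no overlap between any of the groups. In Capan-1 the intensities were 999.1 and 989.3 with shCtrl, 1486.3 and 1448.3 with sh1209, and 944.3 and 1359.7 with sh1319, so every Capan-1 array lay above every MIA PaCa-2 array. After background correction and normalization, the log2 means were 6.63 ± 0.33 (SD, n = 2) with sh1209, 7.53 ± 0.16 with shCtrl and 8.70 ± 0.27 with sh1319 in MIA PaCa-2. In Capan-1 the means were 9.96 ± 0.15 with sh1319, 9.97 ± 0.10 with shCtrl and 10.39 ± 0.35 with sh1209. No difference among these groups passed, although both sh1209 arrays lay above all the others of this line. In MIA PaCa-2, ITGAV fell by 0.90 (SE 0.205, adjusted p = 0.01) with sh1209, a 1.86-fold lower level. It rose by 1.18 (adjusted p = 0.0013) with sh1319, a 2.26-fold higher level. The test between the hairpins gave sh1209 lower than sh1319 by 4.21-fold in this line (log2 difference -2.07, adjusted p = 2.4e-05). The fall with sh1209 no longer passed without MIA PaCa-2 shCtrl replicate 1 (log2 change -0.79, adjusted p = 0.063) or without sh1209 replicate 2 (-0.66, adjusted p = 0.089), whereas the rise with sh1319 passed whichever array was left out. In Capan-1 the changes of 0.42 with sh1209 (95% interval -0.03 to 0.87, adjusted p = 0.21) and -0.01 with sh1319 (-0.46 to 0.44, adjusted p = 0.99) did not pass, although the former did without background correction (0.40, adjusted p = 0.032).

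ITGA5, which pairs with ITGB1 as the main fibronectin receptor, was dim. Its probe 6330338 gave intensities of 112.8 and 107.7 with shCtrl, 128.7 and 137.5 with sh1209, and 99.8 and 109.6 with sh1319 in MIA PaCa-2, detected on all 6 arrays. In Capan-1 it gave 96.5 and 96.6, 97.1 and 123.5, and 88 and 103.5 in the same order, and was detected on 4 of 6 arrays. In MIA PaCa-2 the sh1209 arrays were the highest for ITGA5, the reverse of their place for ITGAV. The log2 mean was 6.16 ± 0.12 (SD, n = 2) with sh1209 against 5.49 ± 0.16 with shCtrl, a rise of 0.68 (SE 0.176, adjusted p = 0.02). With sh1319 the mean was 4.98 ± 0.11, and the change of -0.50 missed the threshold (adjusted p = 0.059). The hairpins differed from each other by 1.18, with sh1209 higher (adjusted p = 0.00049). Both calls held with an offset of 50 (0.42 and 0.69) and without background correction (0.30 and 0.47), at these smaller sizes. The rise with sh1209 was lost without sh1209 replicate 1 (0.59, adjusted p = 0.11) or without shCtrl replicate 2 (0.56, adjusted p = 0.12). In Capan-1, the ITGA5 changes of 0.29 with sh1209 (95% interval -0.10 to 0.68) and -0.23 with sh1319 (-0.62 to 0.15) did not pass, nor did the difference between the hairpins (0.52, adjusted p = 0.084). ITGA8, the alpha chain of the nephronectin receptor, was detected on none of the 12 arrays, with intensities of 74 to 93.1, and was not tested.

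**Figure D1:**
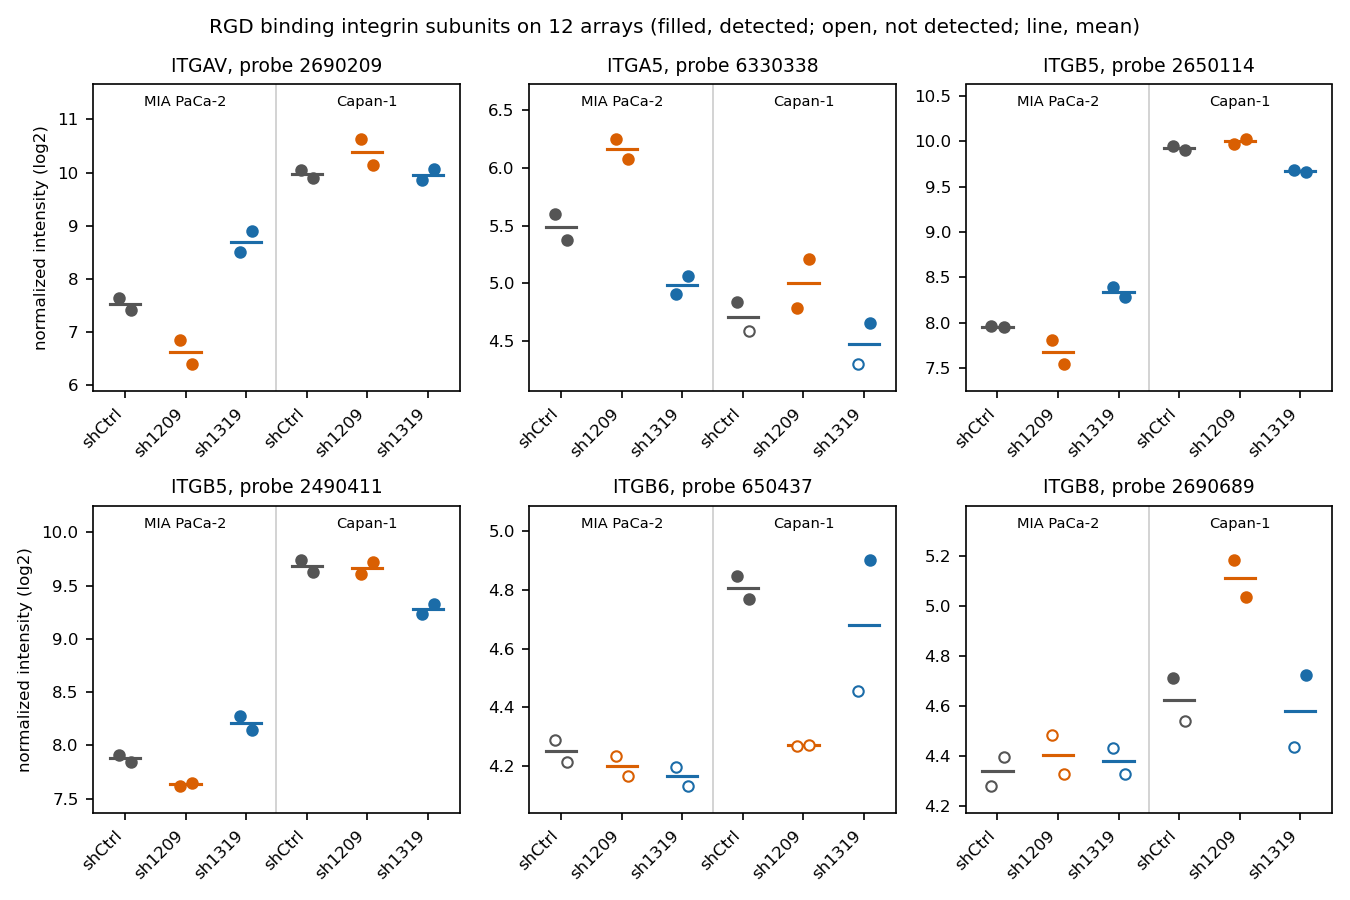
Normalized log2 intensity (y axis) of 6 probes for 5 subunits in the 6 groups of cell line and hairpin (x axis). Each point is 1 array, filled where the detection p was under 0.05, and each short line is the mean of 2 arrays. In MIA PaCa-2, ITGAV and ITGB5 were lowest with sh1209 and highest with sh1319, ITGA5 had the opposite order, and ITGB6 and ITGB8 were detected on no MIA PaCa-2 array.

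ITGB5, the beta chain of the vitronectin receptor αvβ5, was read by 5 probes that differed widely in brightness. Probes 2650114 and 2490411 were detected on all 12 arrays and probe 5360243 on 11, while probes 3450301 and 6380142 were detected on none, with intensities between 81.3 and 93.1. In MIA PaCa-2, probe 2650114 gave 303.4 and 281.4 with shCtrl, 250 and 257.3 with sh1209, and 376.2 and 437.1 with sh1319. In Capan-1 it gave 943 and 991.5, 997.3 and 1357.3, and 852.5 and 1044.6 in the same order. The order of the groups in MIA PaCa-2 was that of ITGAV, with no overlap between them, at log2 means of 7.68 ± 0.19 with sh1209, 7.96 ± 0.01 with shCtrl and 8.34 ± 0.08 with sh1319 (SD, n = 2). With sh1319 this probe rose by 0.39 in MIA PaCa-2 (SE 0.119, adjusted p = 0.035), while with sh1209 the change of -0.28 did not pass (adjusted p = 0.14). The rise did not pass when any 1 of the 4 arrays it compares was left out (0.33 to 0.44, adjusted p between 0.069 and 0.17), nor when the MIA PaCa-2 arrays were fitted alone (adjusted p = 0.095). Probe 2490411 changed by 0.33 with sh1319 (adjusted p = 0.051) and -0.24 with sh1209 (adjusted p = 0.18). Both of these bright probes gave sh1209 lower than sh1319 in MIA PaCa-2, by -0.66 (adjusted p = 0.0017) and -0.57 (adjusted p = 0.0029) on the log2 scale. For these differences, the call was kept under every left-out array and every alternative of the limma fit.

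In Capan-1, ITGB5 probe 2490411 gave intensities of 826.6 and 836.8 with shCtrl, 793.5 and 1110.4 with sh1209, and 647.1 and 860.1 with sh1319. Its log2 mean was 9.28 ± 0.07 with sh1319 against 9.68 ± 0.08 with shCtrl (SD, n = 2), a fall of 0.40 on the log2 scale (SE 0.112, adjusted p = 0.036). This call was lost when arrays were scaled to a common median (-0.22, adjusted p = 0.63), in a fit of the Capan-1 arrays alone (adjusted p = 0.06), and without any 1 of the 4 arrays compared (-0.45 to -0.35, adjusted p between 0.083 and 0.19). The other bright probe, 2650114, gave -0.25 (adjusted p = 0.21), and with sh1209 the 2 probes gave -0.02 and 0.08 (adjusted p = 0.95 and 0.76). The dim probe 5360243, with intensities of 95 to 181.5, passed in no comparison between hairpins of a line, and its change with sh1209 in MIA PaCa-2, 0.14 (95% interval -0.42 to 0.70), had the other sign from the 2 bright probes but turned negative without sh1209 replicate 1 (-0.15) or shCtrl replicate 2 (-0.22).

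The bases just before the annotated starts of ITGAV, ITGB5 and ITGA5 are shown because ITGAV and ITGB5 followed the same order of hairpins in MIA PaCa-2 and ITGA5 the reverse. They are RefSeq sequences of build GRCh38.p14, each of 251 bases ending at the start base, for the start with the highest GC content where a gene has several. Capitals mark the letters of 3 motifs searched on both strands, the GC box GGGCGG, the AP-1 motif TGANTCA and the E-box CACCTG, which were present in 42.7%, 6.73% and 17.6% of 35116 such windows. None of the motifs overlapped another in the windows shown. ITGAV lay on the plus strand at chr2:186589806-186590056, 1 of 2 listed starts, with 70.5% GC and no match. ITGB5 lay on the minus strand at chr3:124887365-124887615, 1 of 3 listed starts, with 74.9% GC, 3 GC boxes and 1 E-box. ITGA5 lay on the minus strand at chr12:54419266-54419516, with 69.7% GC, 1 GC box and 1 AP-1 motif that ends at the start base. The array data do not bear on binding at these letters.
ITGAV: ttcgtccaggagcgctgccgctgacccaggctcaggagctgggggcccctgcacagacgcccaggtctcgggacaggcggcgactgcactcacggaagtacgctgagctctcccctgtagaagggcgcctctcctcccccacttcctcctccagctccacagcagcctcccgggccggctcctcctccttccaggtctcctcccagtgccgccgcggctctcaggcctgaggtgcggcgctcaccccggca
ITGB5: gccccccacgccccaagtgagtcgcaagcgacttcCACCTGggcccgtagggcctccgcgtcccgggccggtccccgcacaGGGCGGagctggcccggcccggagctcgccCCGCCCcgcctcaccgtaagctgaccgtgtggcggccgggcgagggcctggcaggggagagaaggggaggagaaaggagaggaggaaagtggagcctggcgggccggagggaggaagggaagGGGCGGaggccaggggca
ITGA5: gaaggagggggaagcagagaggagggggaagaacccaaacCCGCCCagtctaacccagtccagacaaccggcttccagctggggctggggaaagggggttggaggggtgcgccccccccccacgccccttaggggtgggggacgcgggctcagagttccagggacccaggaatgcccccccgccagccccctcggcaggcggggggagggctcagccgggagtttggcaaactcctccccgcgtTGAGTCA

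ITGB6, the beta chain of αvβ6, was detected on 3 of 12 arrays, all of them Capan-1. Its probe 650437 gave 96.7 and 100.4 with shCtrl (both detected), 83.9 and 90 with sh1209 (neither detected), and 93.2 and 111.9 with sh1319 (only the latter detected). The sh1209 arrays were the lowest of the Capan-1 arrays, and all 6 MIA PaCa-2 arrays lay between 79.5 and 85.1. Against shCtrl, ITGB6 fell by 0.54 on the log2 scale with sh1209 in Capan-1 (SE 0.141, adjusted p = 0.022). Since the probe was not above background with sh1209, the difference is a bound of at least 1.17-fold, taken against the lowest normalized signal of a detected probe on each array. ITGB6 reached the filter of 2 detected arrays through both shCtrl arrays of Capan-1, where it was high, so a lower value elsewhere was built into its selection and the p is no independent support. The call was lost with median scaling (-0.55, adjusted p = 0.095), with an offset of 50 in the background correction (-0.22, adjusted p = 0.06) and without any 1 of the 4 arrays compared (-0.57 to -0.50, adjusted p between 0.077 and 0.12). The window before the ITGB6 start, on the minus strand at chr2:160200272-160200522 of GRCh38.p14, is shown beside the others because it had 30.3% GC, no GC box and no AP-1 motif, with 1 E-box in capitals 70 bases before the start. ITGB6 had 1 listed start, whereas the ITGAV and ITGB5 windows were chosen for high GC. Their unshown starts had 41% GC (ITGAV) and 52.6% and 56.6% (ITGB5). The windows with 41% and 56.6% also held no GC box and no AP-1 motif.
ITGB6: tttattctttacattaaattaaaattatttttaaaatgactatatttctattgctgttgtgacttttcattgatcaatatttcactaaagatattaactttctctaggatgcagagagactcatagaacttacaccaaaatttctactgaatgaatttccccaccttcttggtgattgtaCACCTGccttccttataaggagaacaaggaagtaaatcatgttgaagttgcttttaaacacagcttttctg

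ITGB8, the beta chain of αvβ8, was detected on 4 of 12 arrays, again only in Capan-1. The intensities of probe 2690689 in Capan-1 were 94.1 and 95.5 with shCtrl, 107.2 and 116.1 with sh1209, and 92.6 and 105.7 with sh1319, and those in MIA PaCa-2 were 84.7 to 92.9. Here the sh1209 arrays were the highest, the opposite of ITGB6. The log2 mean was 5.11 ± 0.10 with sh1209 against 4.62 ± 0.12 with shCtrl (SD, n = 2), a rise of 0.48 (SE 0.135, adjusted p = 0.03), and sh1209 was higher than sh1319 by 0.53 (adjusted p = 0.026). Without background correction the rise was 0.15 (adjusted p = 0.15) and the difference between hairpins 0.17 (adjusted p = 0.12). Median scaling gave 0.625 for the hairpin difference (adjusted p = 0.065). The rise did not pass without any 1 of the 4 arrays it compares (0.40 to 0.57, adjusted p between 0.059 and 0.18), and the hairpin difference did not pass without sh1209 replicate 1 (0.46), sh1319 replicate 1 (0.39) or sh1209 replicate 2 (0.60), with adjusted p between 0.068 and 0.2. ITGB3, the beta chain shared by αvβ3 and the platelet receptor, was detected on 1 of 12 arrays, a Capan-1 sh1209 array at 101.1, with all other intensities between 79.2 and 92.1, and was not tested.

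Of 24207 probes tested across the array, 7 were of these subunits, and their calls were set beside the share of all probes called. With sh1209 in MIA PaCa-2, 2 of 7 probes passed, ITGA5 higher and ITGAV lower, against 18.0% of all probes. With sh1319 in MIA PaCa-2, 2 of 7 passed, ITGAV and 1 ITGB5 probe, both higher, against 24.3%. With sh1209 in Capan-1, 2 of 7 passed against 16.8%, ITGB8 higher and ITGB6 lower, or 1 of 6 without ITGB6 and its selection. With sh1319 in Capan-1, 1 of 7 passed, an ITGB5 probe that was lower, against 13.7%. With 7 probes, 3 of them for 1 gene, these counts lie near the background. Between the hairpins themselves, 4 of 7 passed in MIA PaCa-2, 1 higher and 3 lower with sh1209, against 22.6%, and 1 of 7 in Capan-1 against 11.3%. The median change over the 7 probes was -0.05, 0.33, 0.11 and -0.24 in the 4 comparisons with shCtrl in the order given, while that over all probes was within 0.01 of 0 in each.

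**Figure D2:**
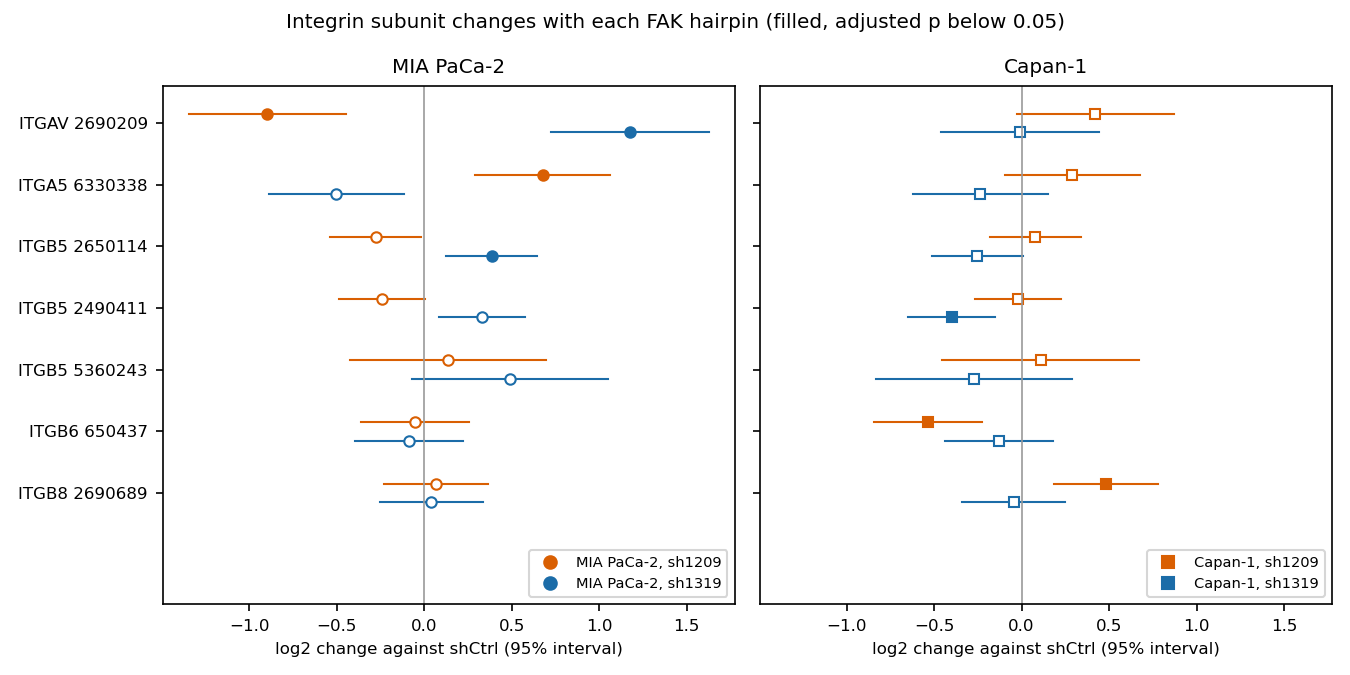
Log2 change against shCtrl (x axis) for the 7 tested probes (y axis), with sh1209 in orange and sh1319 in blue, MIA PaCa-2 on the left and Capan-1 on the right. Bars are 95% intervals from limma and filled points had an adjusted p under 0.05. In MIA PaCa-2, ITGAV moved to -0.90 with sh1209 and 1.18 with sh1319, and ITGA5 to 0.68 and -0.50.

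Whether a hairpin acted differently in the 2 lines was tested by interaction terms. The term averaged over both hairpins, which asks for a common FAK response that differs between the lines, was passed by 0 of 7 probes in limma (0 of 7 also at an unadjusted p under 0.05) against 14.4% of all probes, and for ITGAV it was -0.07 (adjusted p = 0.9). The terms for each hairpin were added after the opposite moves of ITGAV had been seen. For sh1209, 1 of 7 passed against 14.8%, ITGAV, with a response in MIA PaCa-2 minus that in Capan-1 of -1.32 on the log2 scale (SE 0.290, adjusted p = 0.01). For sh1319, 3 of 7 passed against 14.0%, ITGAV with a response higher in MIA PaCa-2 by 1.19 (adjusted p = 0.019) and the bright ITGB5 probes by 0.73 (adjusted p = 0.01) and 0.64 (adjusted p = 0.027). The difference between the hairpins also differed between the lines for 3 of 7 probes, against 14.4%, with -2.50 for ITGAV (adjusted p = 0.00017) and -0.95 and -0.996 for ITGB5 (adjusted p = 0.0021 and 0.0024). For ITGA5 that term was 0.66 (adjusted p = 0.11). The change of the bright PTK2 probe also differed between the lines in the same terms, by -1.63 for sh1209 and -0.71 for sh1319 (adjusted p = 4.5e-05 and 0.014), whereas the dim probe gave 0.77 (adjusted p = 0.046) and 0.17 (adjusted p = 0.7), and the part of PTK2 in the integrin values was not tested.

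Across the 12 arrays, with each line's mean removed, the brightest probes of ITGAV and ITGB5 had a correlation of r = 0.886, ITGAV and ITGA5 of -0.699, ITGA5 and ITGB5 of -0.535, and ITGB6 and ITGB8 of -0.559. These describe 12 arrays that share groups and normalization, and the widest points of the first pairs are the 4 FAK hairpin arrays of MIA PaCa-2. The opposite order of ITGAV and ITGA5 was seen in that line only. In Capan-1 both were higher with sh1209 than with sh1319, by 0.43 and 0.52 on the log2 scale, though neither passed. By the same measure, the probes most like ITGAV were those named RBM24 (r = 0.975), which encodes an RNA binding protein, and KIAA0090 (0.973). For ITGA5 they were LOC402112 (0.961) and FER1L3 (0.959), the older symbol of the membrane protein myoferlin. For ITGB5 they were TGOLN2, a trans-Golgi protein (0.944), and NPL, a sialic acid lyase (0.931). For ITGB6 they were KIFC2 (0.94) and LOC100128140 (0.923), and for ITGB8 the interferon-induced OAS2 (0.958) and the potassium channel KCNQ1 (0.938).

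**Figure D3:**
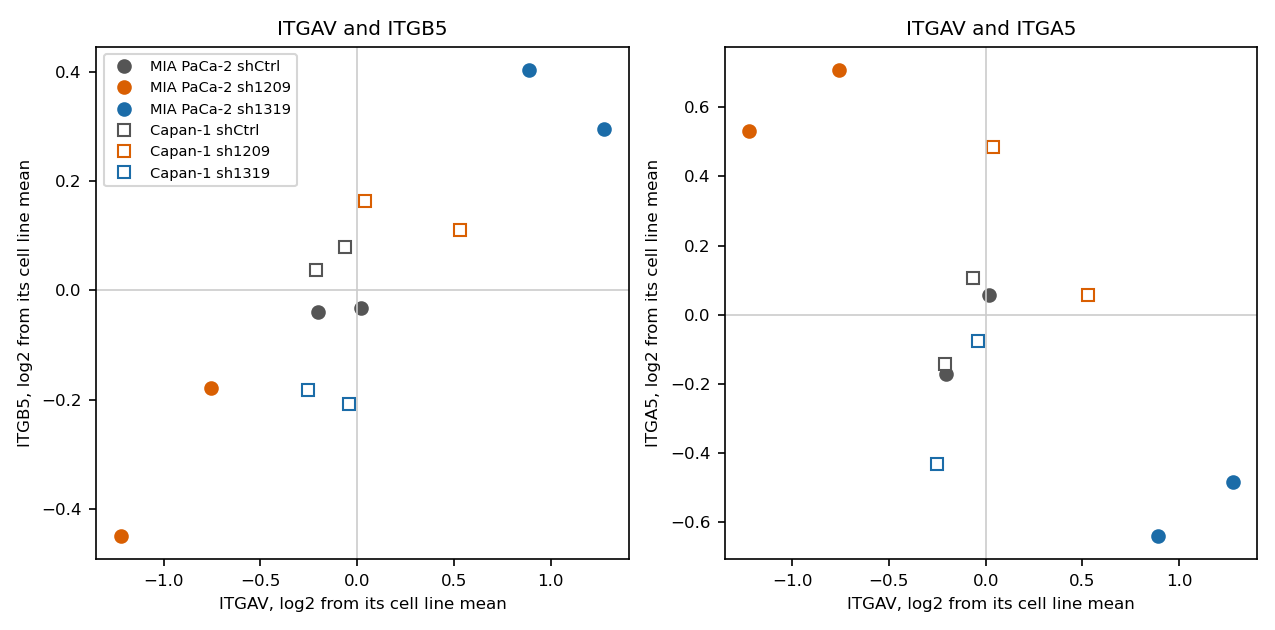
Log2 level of ITGAV (x axis) against ITGB5 (left) and ITGA5 (right), each as the difference from the mean of its cell line, for 12 arrays. Filled circles are MIA PaCa-2 and open squares Capan-1, with shCtrl in grey, sh1209 in orange and sh1319 in blue. The 4 MIA PaCa-2 arrays with FAK hairpins lie at the ends of both plots, rising for ITGB5 (r = 0.886 over all arrays) and falling for ITGA5 (r = -0.699). In Capan-1, ITGAV and ITGA5 both had higher means with sh1209 than with sh1319 (differences of 0.43 and 0.52, not passing).

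The cell lines with shCtrl differed in more of the 7 tested probes than a hairpin changed within a line, and in more of all probes too. Of 7 probes, 6 passed, 1 higher and 5 lower in MIA PaCa-2, against 42.1% of all probes, or 5 of 6 without ITGB6. ITGAV was 5.45-fold lower in MIA PaCa-2 (log2 difference -2.45, SE 0.205, adjusted p = 1.3e-06). The bright ITGB5 probes were 3.90-fold (-1.96, adjusted p = 7.3e-08) and 3.50-fold lower (-1.81, adjusted p = 8.9e-08) and the dim one 2.23-fold lower (-1.16, adjusted p = 0.0029). ITGB6 differed by at least 1.07-fold, lower in MIA PaCa-2, where it was not above background (fitted difference -0.56, adjusted p = 0.007, with the selection through Capan-1 shCtrl noted above). ITGB8 with shCtrl was detected on no MIA PaCa-2 array and 1 of 2 Capan-1 arrays, and did not pass (adjusted p = 0.11). ITGA5 alone was higher in MIA PaCa-2, by 1.71-fold (0.77, SE 0.176, adjusted p = 0.0035), with 0.39 under an offset of 50 and 0.26 without background correction. The 6 calls were kept whichever array was left out. Of 11 tested epithelial marker probes, 8 were lower and 1 higher in MIA PaCa-2 with shCtrl, against the same 42.1%. The higher one was KRT18 probe 6280128 (0.726, limma adjusted p = 0.00056). KRT8 (-0.245) and KRT18 probe 110431 (-0.209) did not pass. VIM and CDH2, given above, separate the lines too, the latter towards Capan-1. The part of these markers in the integrin differences was not tested.

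**Figure D4:**
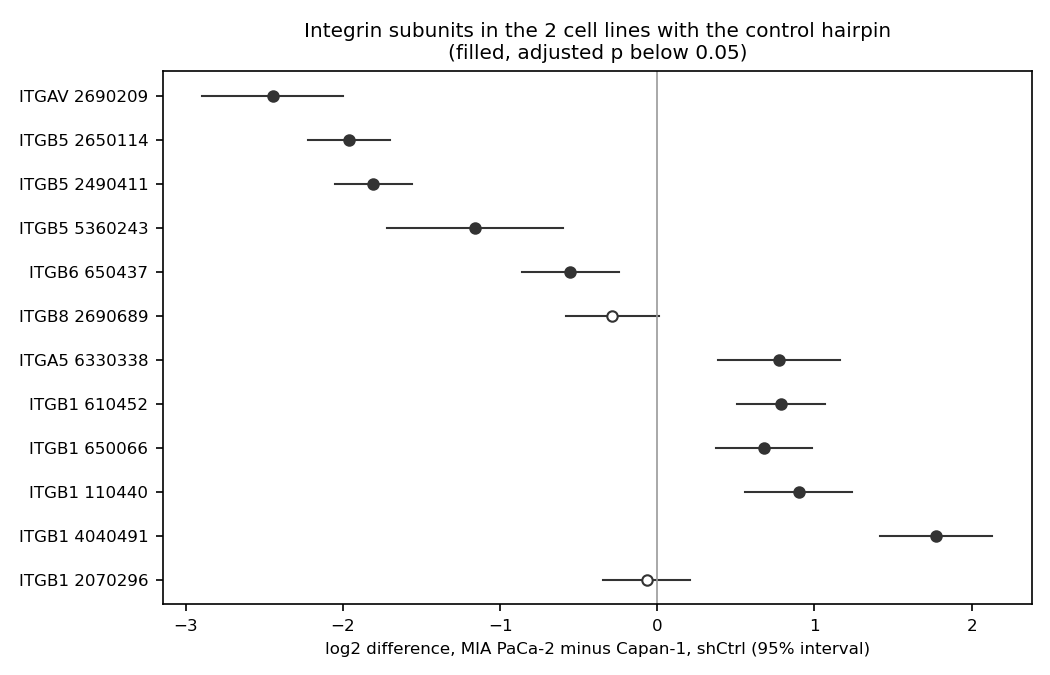
Log2 difference between MIA PaCa-2 and Capan-1 with shCtrl (x axis, MIA PaCa-2 minus Capan-1) for the tested probes of the RGD binding subunits and of ITGB1 (y axis), with 95% intervals from limma. Filled points had an adjusted p under 0.05. ITGAV and ITGB5 lie at -2.45 to -1.16, and ITGA5 and the 4 filled ITGB1 probes at 0.68 to 1.78, the last a fitted value for probe 4040491, which was not above background in Capan-1.

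Of the partner chains, ITGB1, which completes the ITGA5 and ITGA8 receptors, was bright, and ITGA2B, the platelet partner of ITGB3, was detected on 1 array and not tested. With shCtrl, 4 of 5 tested ITGB1 probes passed, against 42.1% of all probes, and were higher in MIA PaCa-2, the side on which ITGA5 lay. Probes 110440, 610452 and 650066 gave 0.90, 0.79 and 0.68 on the log2 scale (adjusted p between 0.00031 and 0.0018), and probe 4040491, not above background in Capan-1, was at least 2.99-fold higher (adjusted p = 2.8e-06), while the dim probe 2070296 did not pass (adjusted p = 0.71). In MIA PaCa-2 the most intense ITGB1 probe, 610452, had log2 means of 12.06 ± 0.11 with shCtrl, 12.27 ± 0.10 with sh1209 and 12.36 ± 0.16 with sh1319, and the hairpins did not differ beyond their spread there (-0.09, adjusted p = 0.7), though probe 4040491 was lower with sh1209 than with sh1319 (-0.63, adjusted p = 0.015). In Capan-1 its means were 11.27 ± 0.13, 11.87 ± 0.04 and 11.30 ± 0.07 in the same order (SD, n = 2). ITGB1 was higher with sh1209 than with sh1319 in Capan-1 for the 3 bright probes, by 0.57, 0.79 and 0.71 (adjusted p = 0.015, 0.0075 and 0.007), where ITGAV and ITGA5 gave 0.43 and 0.52 without passing. The ITGB1 probes called there were 60% of the 5 tested, against 11.3% of all probes. All 5 probes read the same gene on the same arrays, so the ITGB1 shares do not count separate genes. Against shCtrl, 1 of 5 ITGB1 probes tested rose with sh1209 in MIA PaCa-2 (probe 650066, 0.47, adjusted p = 0.037), 1 of 5 with sh1209 in Capan-1 (probe 610452, 0.59, adjusted p = 0.0082), and 0 of 5 with sh1319 in either line, counts near or below the 18.0%, 16.8%, 24.3% and 13.7% of all probes.

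The list of RGD ligands and matrix partners held 14 genes, of which 8 had a tested probe, 10 probes in all. CTGF, a matricellular protein that binds integrins, fell in MIA PaCa-2 on both of its probes with either hairpin (log2 changes of -1.65 and -2.78 for sh1209 and of -1.10 and -2.10 for sh1319, adjusted p between 4.4e-07 and 4.3e-05). In Capan-1, CTGF rose with sh1209 by 0.95 and 1.49 (adjusted p = 0.00027 and 9.8e-05). CYR61, its relative, rose by 0.77 with sh1319 in MIA PaCa-2 (adjusted p = 0.00037) and by 1.35 with sh1209 in Capan-1 (adjusted p = 1.2e-05). MFGE8, an RGD protein that bridges cells to αv integrins, rose by 0.50 with sh1319 in Capan-1 (adjusted p = 0.034). Of the 10 probes, 0 rose and 2 fell with sh1209 in MIA PaCa-2, 1 rose and 2 fell with sh1319 there, 3 rose with sh1209 in Capan-1 and 1 with sh1319. Called shares were 20%, 30%, 30% and 10% against 18.0%, 24.3%, 16.8% and 13.7% of all probes. Their median changes were -0.12, -0.08, 0.34 and 0.19 in that order. Between the lines, MFGE8 (-1.42, adjusted p = 5.2e-06) was lower in MIA PaCa-2, as was THBS1, thrombospondin, by at least 1.15-fold (adjusted p = 0.0024; not above background in MIA PaCa-2), while CTGF (0.50 and 0.33, adjusted p = 0.026 and 0.047) and CYR61 (0.38, adjusted p = 0.018) were higher.

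The latent TGF-β complex, which αvβ6 and αvβ8 bind, was represented by 3 tested genes of 6. LRRC33, a membrane protein that anchors latent TGF-β, rose by 0.70 with sh1209 (adjusted p = 0.0012) and was at least 2.84-fold lower with sh1319 (adjusted p = 1.3e-06), where it was not above background, in MIA PaCa-2, the order of ITGA5 and the reverse of ITGAV. TGFB3, a TGF-β ligand, rose by 1.42 with sh1209 there (adjusted p = 0.00013; detected on 1 of 2 shCtrl arrays) and did not pass with sh1319 (adjusted p = 0.11). None of the 3 probes passed in Capan-1, where LRRC33 was detected on no array and TGFB3 on 1. The called shares for MIA PaCa-2 were 66.7% with sh1209 (18.0% of all probes) and 33.3% with sh1319 (24.3%). Those for Capan-1 were 0% with each hairpin, against 16.8% and 13.7%. With only 3 probes, 0% lies near these shares, so the counts alone do not show that the lines responded differently. Median changes in the same order were 0.70, -0.40, 0.20 and 0.04. Between the lines with shCtrl, 100% were called, against 42.1%. Against Capan-1, MIA PaCa-2 with shCtrl was higher in LRRC33 by at least 3.05-fold (adjusted p = 4.9e-08) and in TGFB3 by at least 1.22-fold (adjusted p = 0.042) and lower in LTBP3, a latent TGF-β binding protein (-2.33, adjusted p = 3.9e-06; detected on 1 of 2 MIA PaCa-2 arrays).

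Among 10 genes that switch integrins on or off, 9 were tested. FERMT1 and FERMT2 encode kindlins, which bind beta tails and activate integrins. FERMT1 rose by 1.08 with sh1209 (adjusted p = 0.001) and fell by 0.73 with sh1319 (adjusted p = 0.0081) in MIA PaCa-2, and FERMT2 fell by 0.79 with sh1209 there (adjusted p = 0.0024) and by 0.52 with sh1209 in Capan-1 (adjusted p = 0.027). Between the lines with shCtrl, FERMT2 was 2.69 higher in MIA PaCa-2 on the log2 scale (adjusted p = 2.1e-08). CIB1, which binds an integrin alpha tail, rose by 0.48 and 0.34 with the hairpins in MIA PaCa-2 (adjusted p = 0.0093 and 0.039) and was lower there than in the other line (-1.39, adjusted p = 7.2e-07), as was SHARPIN, an integrin inactivator (-0.65, adjusted p = 0.0018). ITGB1BP1, which competes with talin for the beta tail, was read by probes of unlike brightness and opposite direction between the lines, the brighter 1.28 higher in MIA PaCa-2 on the log2 scale (adjusted p = 7.6e-06) and the dimmer, not above background there, at least 1.36-fold lower (adjusted p = 6.8e-05). The brighter of them fell by 0.41 with sh1319 in MIA PaCa-2 (adjusted p = 0.042) and the dimmer rose by 0.45 with sh1319 in Capan-1 (adjusted p = 0.029). Of the 10 probes, 2 rose and 1 fell with sh1209 and 1 rose and 2 fell with sh1319 in MIA PaCa-2, and 2 fell with sh1209 and 1 rose with sh1319 in Capan-1, shares of 30%, 30%, 20% and 10% against 18.0%, 24.3%, 16.8% and 13.7% of all probes. The median changes were 0.14, 0.13, 0.01 and 0.15 in that order.

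All 9 genes of integrin trafficking were tested, with 13 probes. RAB4A, the GTPase of fast recycling, fell in MIA PaCa-2 (-0.57 with sh1209 and -1.12 with sh1319, adjusted p = 0.023 and 0.00022). NUMB, an endocytic adaptor of integrins, fell on probe 4230403 by 0.76 with sh1319 in MIA PaCa-2 (adjusted p = 0.00055) and in Capan-1 with either hairpin (-0.38 and -1.07 in the same order, adjusted p = 0.049 and 0.00017). The other NUMB probe, 110445, gave 0.02 with sh1319 in MIA PaCa-2 (adjusted p = 0.96) and -0.31 and -0.63 in Capan-1 (adjusted p = 0.3 and 0.037). CLIC3 and RAB11FIP1, which act in recycling, rose in Capan-1 with both hairpins, on no more than 1 probe each. CLIC3 rose by 1.21 and 1.57 (adjusted p = 0.00011 and 3.7e-05) and RAB11FIP1 by 0.66 and 0.58 (adjusted p = 0.004 and 0.0097). With sh1209 and sh1319 in turn, 1 and 0 of 13 probes rose and 1 and 3 fell in MIA PaCa-2, and 3 and 2 rose and 1 and 2 fell in Capan-1, shares of 15.4%, 23.1%, 30.8% and 30.8% against 18.0%, 24.3%, 16.8% and 13.7% of all probes. The median changes were 0.18, -0.08, 0.09 and 0.03. RAB25, an epithelial recycling GTPase that binds integrin tails, was at least 48.6-fold lower in MIA PaCa-2 with shCtrl, where it was not above background, than in the other line (adjusted p = 6.4e-12), and CLIC3 likewise at least 1.13-fold lower (adjusted p = 0.0013). Also lower were RAB11FIP1 (-2.65 on probe 6130156, adjusted p = 7.4e-09) and NUMB on probe 4230403 (-0.98, adjusted p = 2.9e-05), while NUMB probe 110445 did not pass (-0.39, adjusted p = 0.1).

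**Figure D5:**
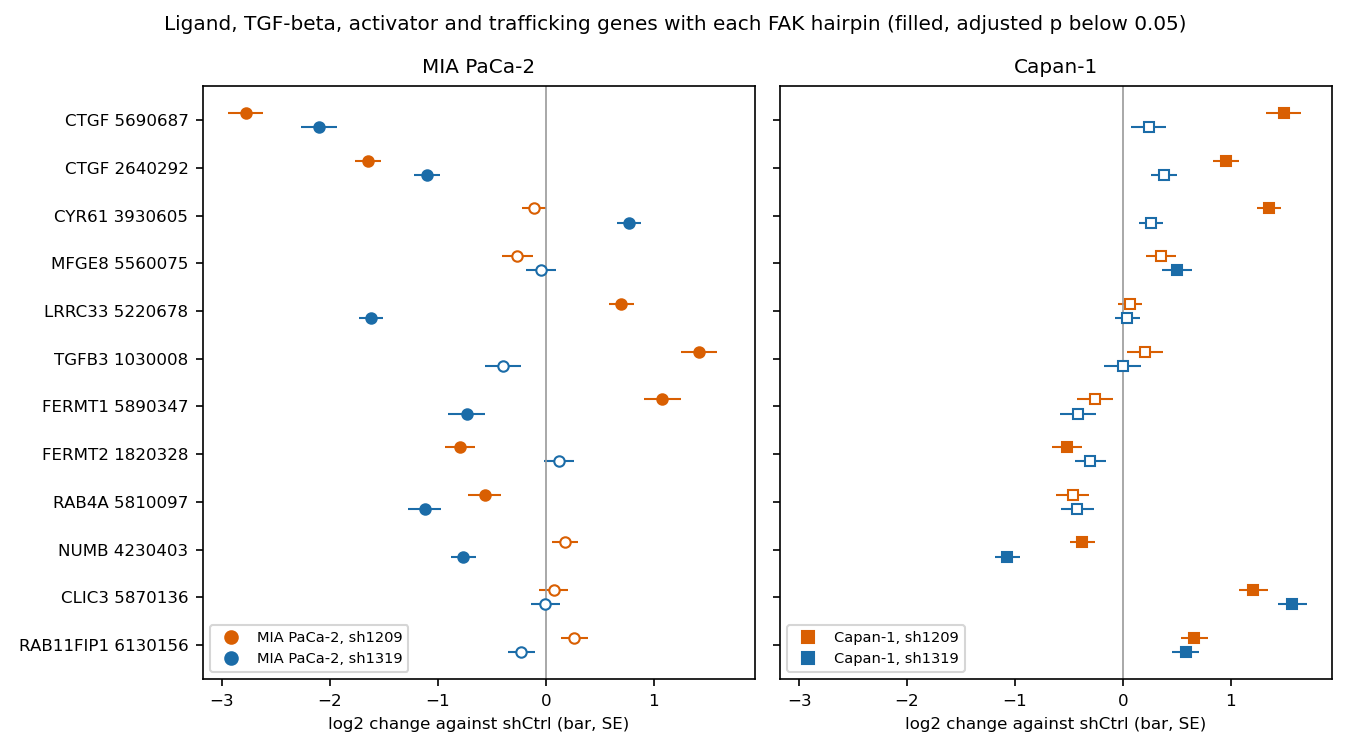
Log2 change against shCtrl (x axis, bars are the SE) for probes of genes named from the ligand, latent TGF-β, activator and trafficking lists (y axis), with sh1209 in orange and sh1319 in blue, MIA PaCa-2 on the left and Capan-1 on the right. Filled points had an adjusted p under 0.05. CTGF fell with both hairpins in MIA PaCa-2, to -2.78 with sh1209, and LRRC33 and FERMT1 moved in opposite directions with the 2 hairpins, LRRC33 to below background with sh1319.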

How the data were processed

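RNA (500 ng per sample) of both cell lines was measured on 12 Illumina arrays, 2 in each of 6 groups, and samples were grouped by their labels. The deposited values are linear probe intensities with no normalization, from GenomeStudio 2011.1 per the submitters' processing notes, each with a detection p-value that the authors deposited beside it. The deposited table holds 47320 rows, including 92 spike-in rows that were left out, and 28 empty columns. The build of the probe annotation is not given in the sources used here.

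Background was corrected with limma 3.58.1 in R 4.3.3 (nec, normexp with an offset of 16, from the detection p-values), followed by quantile normalization and log2. Values are therefore log2 (intensity + offset), which understates changes of dim probes. The low number of arrays limits the precision. Probes with a detection p under 0.05 on at least 2 of 12 arrays were tested, 24207 of 47228. A mean was fitted for each of the 6 groups (6 residual degrees of freedom), and Benjamini-Hochberg adjustment ran over all tested probes within each comparison, with a threshold of 0.05. The code was tested on simulated data.

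Alternatives were median scaling, no background correction, an offset of 50, no filter or a stricter one, the replicate block, array weights, a fit of 1 cell line, each array left out (the remaining array of that group is then assumed to vary like the other groups), and the methods' t-test on 2 arrays against 2, a two-sided approximation rather than an exact test. The 3 interaction terms other than the averaged one were added after the data had been seen. The members and gene lists were chosen with earlier results of these data known. The text names every member, PTK2, ITGB1 and ITGA2B, up to 4 genes per list with the largest change past the threshold for the hairpins and again for the cell lines, and the 2 probes most correlated with each member. Markers were used to describe the lines. RefSeq sequences were matched by symbol for 6 of the 7 members; ITGB3 was not matched, and the ITGA8 and ITGB8 sequences are not shown.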

Additional observations from a re-analysis of the deposited data

Results flagged for a closer look

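In these 7 results the effect of a hairpin, or the difference between the hairpins, differed between MIA PaCa-2 and Capan-1 by an interaction term. Values are on the log2 scale with limma's adjusted p. All come from the 3 terms added after the data had been seen, so the p-values are no independent support. The averaged term was passed by 0 of 7 probes. The results overlap, since the hairpin difference is the sh1209 term minus the sh1319 term and ITGB5 enters by more than 1 probe. The ITGAV response to sh1209 was lower in MIA PaCa-2 (difference -1.319, adjusted p = 0.01) and the response to sh1319 higher (1.185, adjusted p = 0.019). The latter did not pass without MIA PaCa-2 shCtrl replicate 2 (1.07), MIA PaCa-2 sh1319 replicate 2 (0.99), Capan-1 shCtrl replicate 1 (1.11) or Capan-1 sh1319 replicate 1 (1.08), with adjusted p between 0.058 and 0.074. The ITGB5 response to sh1319 was higher in MIA PaCa-2 on probe 2490411 (0.7318, adjusted p = 0.01) and on probe 2650114 (0.6386, adjusted p = 0.027). With median scaling these were 0.73 (adjusted p = 0.15) and 0.66 (adjusted p = 0.19). Probe 2650114 also did not pass without any 1 of the 4 shCtrl arrays, either Capan-1 sh1319 array or MIA PaCa-2 sh1319 replicate 1 (0.585 to 0.659, adjusted p between 0.06 and 0.09). The difference of sh1209 from sh1319 was lower in MIA PaCa-2 than in the other line for ITGAV (-2.504, adjusted p = 0.00017), ITGB5 probe 2490411 (-0.954, adjusted p = 0.0021) and ITGB5 probe 2650114 (-0.9956, adjusted p = 0.0024), and these 3 passed whichever array was left out. In Capan-1 the ITGAV difference between hairpins was 0.43 and did not pass on its own.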

How the results depend on the processing

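No member value that passed changed its sign under any alternative, while some values near 0 that did not pass did. The median of all probes moved to 0.107 with median scaling for sh1319 in Capan-1, over 0.1 from its value of -0.00144. Of the 7 members tested, the counts that passed were as follows where they differed from the report. With sh1209 in MIA PaCa-2 there were 3 without background correction, 0 by the methods' t-test after adjustment, and 1 to 2 with single arrays left out. With sh1319 in MIA PaCa-2 there were 3 without background correction, 3 without a filter, 4 with an offset of 50, 4 with the stricter filter, 3 by the t-test before and 0 after adjustment, and 1 to 3 with arrays left out. With sh1209 in Capan-1 there was 1 with median scaling, 1 with an offset of 50, 0 with the stricter filter (which left out ITGB6 and ITGB8), 0 by the adjusted t-test, and 0 to 2 with arrays left out. With sh1319 in Capan-1 there were 0 with median scaling, 2 without background correction, 0 in the fit of 1 cell line, 2 by the t-test before and 0 after adjustment, and 0 to 1 with arrays left out. Between the hairpins, the adjusted t-test gave 0 in MIA PaCa-2. In Capan-1 there were 0 with median scaling, 3 without background correction, 3 with an offset of 50, 3 of 11 without a filter (ITGB3 among them, at 0.35), 2 with array weights, 2 by the t-test before and 0 after adjustment, and 0 to 1 with arrays left out. Between the lines there were 5 with the stricter filter and 5 by the t-test before and 3 after adjustment, the interaction for the hairpin difference gave 4 with an offset of 50 and 3 to 4 with arrays left out, and the interaction for sh1319 gave 1 with median scaling and 1 to 3 with arrays left out. The cause of these moves was not tested, except where a filter removed a probe. By the t-test before adjustment, the fall of ITGAV with sh1209 in MIA PaCa-2 had a p of 0.074 (this test is an approximation, not exact).

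Of 24207 probes, median scaling lowered the counts from 4365 to 2243 for sh1209 and from 5887 to 3846 for sh1319 in MIA PaCa-2, from 4074 to 2459 for sh1209 in Capan-1, from 5478 to 3477 and 2730 to 1217 between the hairpins, and from 3475, 3594, 3381 and 3478 to 1834, 1848, 1673 and 1760 for the interactions. It also shifted the split of higher to lower from 2964 and 2923 to 2562 and 1284 (sh1319, MIA PaCa-2), from 1971 and 2103 to 2009 and 450 (sh1209, Capan-1), from 1682 and 1640 to 1936 and 334 (sh1319, Capan-1), from 2773 and 2705 to 1206 and 2271 (hairpins, MIA PaCa-2), and for the interactions to 581 and 1253, 483 and 1365, and 555 and 1205 from 1753 and 1722, 1794 and 1800, and 1643 and 1835. The adjusted t-test called 1, 4, 0 and 0 against shCtrl, 1 and 2 between the hairpins and 3905 of 10187 between the lines. Leaving out single Capan-1 arrays lowered the Capan-1 counts to as few as 2170 of 4074 and 1742 of 3322 against shCtrl, and 1281 of 2730 between the hairpins, and the interactions to 2212 (averaged), 2252 (sh1319) and 2282 (hairpin difference). Of 42 group levels, 15 moved by over 1 SD (of 2 arrays) with median scaling and 38 without background correction. The latter leaves the background in each value, so levels of dim probes shift there whatever the differences between groups. That count therefore does not show how those differences depend on the processing.

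Whether replicate numbers pair the samples was not settled. After normalization, the deviations of same-numbered arrays correlated over 0.1 in 1 of 15 pairs of groups (-0.0611 to 0.16). Normalization removes shifts of whole arrays, so these values cannot show that the samples were unpaired. Before normalization, replicate 2 had the higher median intensity in each group. With shCtrl it was 92.5 against 89.9 in MIA PaCa-2 and 93 against 88.7 in Capan-1. With the replicate block, all 77 member values kept their call, and sh1209 in MIA PaCa-2 had 2 members and 4247 probes called. ITGB6, ITGB8 and ITGA5 lay near background, which limits what their values show.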
